A study of Mus musculus with 7 samples.

Results

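Messenger RNA for 10 transcription regulators of autophagy and mitochondrial biogenesis was compared between WT and LC3b-/- mouse retinal pigment epithelium (RPE). The regulators are Tfeb, Tfe3, Foxo1, Foxo3, Zkscan3, Sirt1, Ppargc1a, Ppargc1b, Esrra and Nrf1. They were chosen by name for what their proteins do, and each was found once among the 52740 gene identifiers. All 10 passed the filter on low counts and were among the 16990 genes tested.

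TFEB and TFE3 are basic helix-loop-helix factors that leave the lysosome surface for the nucleus when mTORC1 is inactive and switch on lysosomal and autophagy genes, and the zinc finger protein ZKSCAN3 is known as a repressor of such genes. FOXO1 and FOXO3 act in the nucleus when insulin and AKT signaling is low, and SIRT1 is an NAD-dependent deacetylase that acts on FOXO proteins and on PGC-1 alpha. PGC-1 alpha (Ppargc1a) and PGC-1 beta (Ppargc1b) are coactivators that bind ERR alpha (Esrra) and other receptors and, together with nuclear respiratory factor 1 (Nrf1), raise the genes of the respiratory chain. RPE cells rest on the choroid, digest the outer segment tips that photoreceptors shed each day, and depend on lysosomes and mitochondria to do so. Much of the control of these regulators is on protein location and modification, which mRNA levels do not measure.

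RPE was released enzymatically from eyecups after removal of the cornea, ciliary body and lens, and polyadenylated RNA was sequenced from 7 mice labelled 24 months old, with 1 library per mouse. The 4 WT mice (3 females F1, F2 and F3, and the male M1) were of the strain C57BL6/J, and the 3 LC3b-/- mice (2 females F1 and F3, and the male M) carried a targeted mutation of Map1lc3b, which encodes the autophagosome protein LC3b, in a line named as mixed B6 and 129P2. Strain background and the targeted gene therefore cannot be told apart in this comparison. The purpose of the design was to find genes whose expression differed in RPE that lacks LC3b.

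The libraries held 24495952 to 35616134 counts. Map1lc3b itself fell from 115 ± 11.2 CPM (counts scaled for library size by TMM; SD, n = 4) in WT to 7.28 ± 0.901 CPM (SD, n = 3) in LC3b-/- (log2 fold change -3.98, adjusted p of 0.000186 in edgeR), and no LC3b-/- library exceeded 8.33 CPM where no WT library lay below 104 CPM. The summed level of 12 RPE markers was 31441 to 48383 CPM in WT and 14543 to 29113 CPM in LC3b-/-, without overlap, and all 12 markers were above 0 in every library, with Best1 the lowest (0.861 to 1.71 CPM). The LC3b-/- libraries also held more RNA of 8 ocular surface epithelium markers (2306 to 18481 CPM against 6.18 to 2124 CPM in WT) and of 8 endothelial markers (1380 to 1639 CPM against 388 to 1211 CPM in WT). In LC3b-/- F1 the surface epithelium sum of 18481 CPM exceeded its RPE sum of 14543 CPM, which goes against a library of RPE alone. Photoreceptor RNA (13 markers) ranged from 274 to 20254 CPM in WT, highest in WT F2, and from 96.5 to 6866 CPM in LC3b-/-. In such bulk samples fewer cells of a type and less RNA per cell cannot be told apart.

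None of the 10 regulators passed the test for differential expression, which asked for both an adjusted p below 0.05 and a difference of 1.5-fold or more in edgeR's quasi-likelihood test (0 of 10, beside 40 of all 16990 genes, or 0.235%). Without adjustment 3 regulators had a p under 0.05, as had 24.1% of all genes: Sirt1 was higher (13.5% of all genes were higher at this level) and Zkscan3 and Ppargc1a were lower (10.6% of all genes were lower). In 4 regulators (Foxo3, Sirt1, Zkscan3 and Ppargc1a) the 3 LC3b-/- libraries lay entirely on one side of the 4 WT libraries, as in 22.3% of all genes. These counts are 30.0% and 40.0% of a list in which 1 gene more or less moves the share widely, and neither is read as a result about the regulators. The median log2 fold change was 0.13 over the regulators (0.04 in females only) and 0.01 over all genes tested. Without WT F2 (most photoreceptor RNA) and LC3b-/- F1 (most surface epithelium RNA), no regulator had an unadjusted p under 0.05. In this subset 4 regulators did not overlap, but smaller groups separate more easily, and the share over all genes was not counted. The 3 unadjusted results also went to 0 when WT F3, WT M1 or LC3b-/- F1 alone was left out. In females alone Ppargc1a was the single regulator with such a p. Calls over all genes went from 40 to 2 without WT F2 and LC3b-/- F1 together. They were 16 without WT F3, 20 without WT M1, 15 without LC3b-/- F1 and 96 in females alone. The share of all genes with an unadjusted p under 0.05 was not counted in these smaller sets. The reason for the drops was not tested. With 1 male per genotype, whether the difference varied by sex could not be tested usefully.

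**Figure D1:**
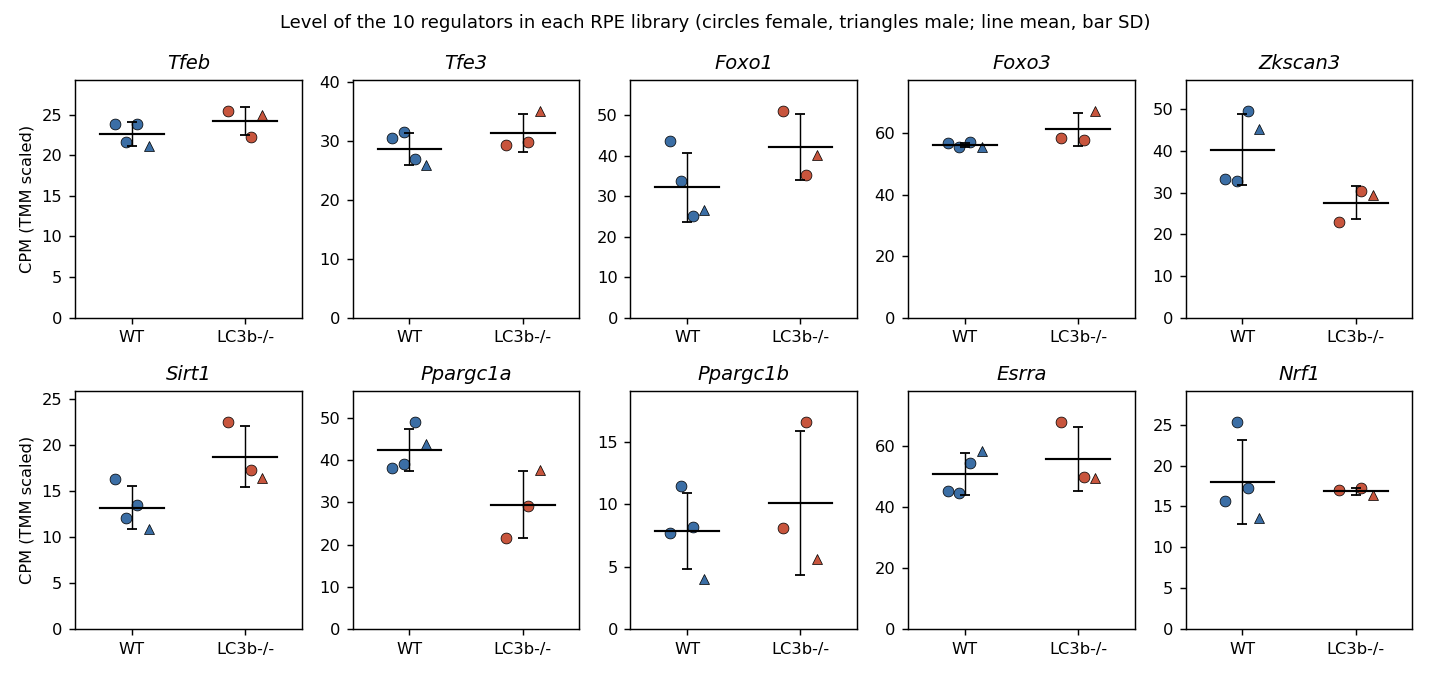
Level of each regulator (CPM scaled by TMM, y axis from 0) in the 4 WT libraries (blue) and the 3 LC3b-/- libraries (red), with circles for females, triangles for males, a line at the mean and a bar of 1 SD. The groups are apart for Foxo3, Sirt1, Zkscan3 and Ppargc1a and overlap for the other 6 regulators.

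Levels between genes were compared per kilobase of the canonical transcript. In WT, Esrra was highest at 22.5 ± 3.02 CPM per kilobase (SD, n = 4) and Ppargc1b lowest at 2.01 ± 0.781. Between them came Zkscan3 (14.6 ± 3.10), Tfeb (9.64 ± 0.621), Nrf1 (8.89 ± 2.55), Tfe3 (8.38 ± 0.789), Foxo3 (8.21 ± 0.104), Ppargc1a (6.57 ± 0.775), Foxo1 (3.71 ± 0.981) and Sirt1 (3.15 ± 0.560), all in CPM per kilobase. The WT ranges of neighbours in this order overlapped from Tfeb through Nrf1 and Tfe3 to Foxo3, and again from Foxo1 through Sirt1 to Ppargc1b, so the order within these runs is not resolved. Ranges also overlapped beyond neighbours, since that of Nrf1 (6.71 to 12.6) reached both Zkscan3 (from 11.9) and Ppargc1a (up to 7.58), and Tfe3 (from 7.55) reached Ppargc1a. Esrra also came first and Ppargc1b last in LC3b-/- (24.7 ± 4.62 and 2.59 ± 1.47 CPM per kilobase, SD, n = 3) and when all annotated exons of a gene were counted as its length, which moved the genes between, among them Zkscan3 from 2nd to 7th and Ppargc1a from 7th to 3rd.

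The promoters of the regulators were searched on both strands for 6 short motifs, from 250 bases before to 50 after the start of the canonical transcript (GRCm39), and the same window was searched for 14928 protein coding genes tested. The motifs were the E-box CACGTG that TFEB and TFE3 can bind (in 9.32% of promoters), its extended form TCACGTGA, the core of the lysosomal CLEAR element, which contains the E-box (1.49%), the FOXO motif GTAAACA (2.78%), the ERR motif TCAAGGTCA (0.368%), the NRF1 core GCATGCGC (4.38%) and the cyclic AMP response element TGACGTCA (3.02%). Matches were found for Sirt1, Ppargc1a and Esrra and not for the other 7 regulators in these windows. They are printed here because 2 of these genes are among those with an unadjusted p under 0.05 and because each site is one that a protein of this group, or the cyclic AMP pathway upstream of PGC-1 alpha, can bind. Capitals mark the motif, and each sequence is read 5′ to 3′ on the minus strand, on which all 3 genes lie. The Sirt1 promoter shown spans chr10:63174872-63175121, directly before the start of the canonical transcript. The annotated Sirt1 gene reaches further upstream than this start (63174871), to base 63217483. The promoter shown holds an E-box at positions -58 to -53 from the start.
Sirt1 promoter: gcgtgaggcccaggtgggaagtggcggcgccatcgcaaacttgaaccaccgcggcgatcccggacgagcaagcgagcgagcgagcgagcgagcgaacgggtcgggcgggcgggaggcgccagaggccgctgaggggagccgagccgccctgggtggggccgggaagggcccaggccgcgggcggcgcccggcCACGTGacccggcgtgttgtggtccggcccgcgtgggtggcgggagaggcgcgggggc
Sirt1 holds a further E-box inside a full CLEAR core at positions 14 to 21 after the start. The core is printed with 10 bases on each side, which spans chr10:63174841-63174868.
Sirt1 CLEAR core: gaggggcgggTCACGTGAcggggtttaa
The Ppargc1a site lies at positions -83 to -76. It is printed with 10 bases on each side, which spans chr5:51711330-51711357. The annotated Ppargc1a gene reaches further upstream than the start used here (51711264), to base 51725068.
Ppargc1a cyclic AMP response element: tgccttggagTGACGTCAggagtttgtg
The Esrra site is an NRF1 core at positions -25 to -18. With 10 bases on each side, the printed stretch spans chr19:6899193-6899220.
Esrra NRF1 core: cccctgttttGCATGCGCaggccggccc
These are matches of letters only, and binding was not measured.

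Tfeb and Tfe3, the lysosomal activators, were nearly equal in the 2 genotypes. Tfeb (ENSMUSG00000023990, chr17:48047837-48103348, plus strand) stood at 23.9, 21.6, 23.9 and 21.1 CPM in WT (F1, F2, F3, M1), and at 25.5, 22.2 and 24.9 CPM in LC3b-/- F1, F3 and M. The LC3b-/- values were spread over and just above the WT range. The log2 fold change was 0.10 ± 0.11 (SE), with a 95% interval of -0.16 to 0.36 and an adjusted p of 0.621 in edgeR, so a change of 1.5-fold in either direction (0.58 on this scale) lies outside the interval. It was 0.058 without LC3b-/- F1 and 0.042 in females only. Tfe3 (ENSMUSG00000000134, chrX:7628761-7641444, plus strand) stood at 30.4, 31.4, 26.9 and 25.8 CPM in the WT libraries and at 29.2, 29.7 and 35.1 CPM in LC3b-/- F1, F3 and M. Only the LC3b-/- male lay above every WT library. Its log2 fold change was 0.13 ± 0.13 (SE), with an interval of -0.16 to 0.42 and an adjusted p of 0.555 in edgeR, and it was 0.039 without LC3b-/- M and -0.01 in females alone.

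Zkscan3, the repressor of autophagy and lysosomal genes, had the smallest unadjusted p of the 10 regulators. The gene (ENSMUSG00000021327, chr13:21571173-21587171, minus strand) stood at 33.3, 32.7, 49.7 and 45.3 CPM in WT (F1, F2, F3, M1), and at 23.0, 30.4 and 29.4 CPM in LC3b-/- F1, F3 and M. With TMM scaling, all LC3b-/- libraries were below all WT libraries. Even so, WT F1 and F2 lay closer to LC3b-/- F3 and M than to WT F3 and M1. The means were 40.3 ± 8.53 CPM (SD, n = 4) and 27.6 ± 4.04 CPM (SD, n = 3). This gave a log2 fold change of -0.54 ± 0.19 (SE; 0.686 times the WT level, 95% interval -0.999 to -0.09 in log2), with an unadjusted p of 0.0250 and an adjusted p of 0.159 in edgeR. The exact two-sided permutation test gave p = 0.0857, where the smallest p it can give is 0.0286. Without LC3b-/- F1 the log2 fold change was -0.43, with an unadjusted p of 0.0837 in edgeR. With library size alone as scaling, the groups overlapped. The log2 fold change was then -0.49, with an unadjusted p of 0.0618 in edgeR. Zkscan3 shares a stretch of 343 bases at 98.8% identity with Zkscan4, and reads could have been divided between them. With the counts of Zkscan3 and its copies summed, the log2 fold change was -0.53, with an adjusted p of 0.168 in edgeR.

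Over the 7 libraries, the 5 genes whose log2 CPM followed Zkscan3 most closely were Urgcp (Pearson r = 0.990), Ovca2 (r = 0.990), Mus81 (r = 0.986), Gm42829 (r = 0.984) and Gcdh (r = 0.983), picked as the highest of all genes tested. The libraries share their genotype groups and cell composition. None of these genes passed the adjusted test either, and their log2 fold changes ran from -0.76 for Gm42829, which is hardly expressed (1.24 CPM in WT), to -0.27 for Mus81.

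Foxo1 varied widely between mice of the same genotype, and Foxo3 varied little in WT. Foxo1 (ENSMUSG00000044167, chr3:52175757-52260642, plus strand) stood at 43.6, 33.6, 25.0 and 26.4 CPM in WT (F1, F2, F3, M1), and at 51.1, 35.3 and 40.1 CPM in LC3b-/- F1, F3 and M. WT F1 was above 2 of the LC3b-/- libraries, and the groups overlapped. On the log2 scale the fold change was 0.39 ± 0.23 (SE), with an interval of -0.14 to 0.92 and an adjusted p of 0.326 in edgeR, so both no change and a 1.5-fold increase lie inside the interval. It was 0.23 without LC3b-/- F1, which held the highest value. Foxo3 (ENSMUSG00000048756, chr10:42057837-42154007, minus strand) stood at 56.7, 55.7, 57.1 and 55.7 CPM in the WT libraries, a coefficient of variation of 1.27%, and at 58.6, 58.0 and 67.4 CPM in LC3b-/- F1, F3 and M, where it was 8.59%. The 3 LC3b-/- values were all above the WT values, F1 and F3 only just. Its log2 fold change was 0.12 ± 0.10 (SE), with an interval of -0.10 to 0.35 and an adjusted p of 0.459 in edgeR, and the exact permutation p was 0.0286, the smallest these groups allow. It was 0.046 without LC3b-/- M and 0.041 in females only.

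Sirt1, the deacetylase of FOXO proteins and PGC-1 alpha, was the regulator with the most positive fold change. The gene (ENSMUSG00000020063, chr10:63154581-63217483, minus strand) stood at 16.3, 12.1, 13.4 and 10.8 CPM in WT (F1, F2, F3, M1), and at 22.5, 17.3 and 16.5 CPM in LC3b-/- F1, F3 and M. All LC3b-/- libraries were above all WT libraries, with WT F1 just below LC3b-/- M. The means were 13.2 ± 2.34 CPM (SD, n = 4) and 18.7 ± 3.27 CPM (SD, n = 3). The log2 fold change was 0.51 ± 0.19 (SE; 1.42 times the WT level, interval 0.07 to 0.95 in log2), with an unadjusted p of 0.0286 and an adjusted p of 0.166 in edgeR, and the exact permutation p was 0.0571. It was 0.35 without LC3b-/- F1, which held the highest value. The end of Sirt1 overlaps Herc4 on the opposite strand over 707 bases. The library kit keeps strand, but whether the counting used it is not given in the sources used here. Herc4 had a log2 fold change of 0.35 ± 0.18 (SE), with an adjusted p of 0.265 in edgeR. With library size alone as scaling, Sirt1 was the single regulator whose groups did not overlap.

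With TMM scaling Ppargc1a, the coactivator that drives mitochondrial biogenesis, was lower in every LC3b-/- library than in any WT library. The gene (ENSMUSG00000029167, chr5:51611592-51725068, minus strand) stood at 38.0, 39.1, 49.0 and 43.7 CPM in WT (F1, F2, F3, M1), and at 21.6, 29.2 and 37.6 CPM in LC3b-/- F1, F3 and M. LC3b-/- M lay next to WT F1, and LC3b-/- F1 was far below both. The means were 42.5 ± 5.01 CPM (SD, n = 4) and 29.5 ± 8.01 CPM (SD, n = 3). On the log2 scale the fold change was -0.53 ± 0.20 (SE; 0.694 times the WT level, interval -0.99 to -0.06 in log2), with an unadjusted p of 0.0313 and an adjusted p of 0.173 in edgeR, and the exact permutation p was 0.0286. It was -0.35 without LC3b-/- F1, -0.74 without LC3b-/- M and -0.73 in females alone. With library size alone as scaling, the groups overlapped and it was -0.48, with an unadjusted p of 0.0666 in edgeR. The adjusted p ran from 0.0714 to 0.429 over all alternatives.

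Ppargc1b, the second coactivator, was the least expressed and most variable of the 10 genes. Ppargc1b (ENSMUSG00000033871) stood at 7.73, 11.4, 8.20 and 4.00 CPM in WT (F1, F2, F3, M1), and at 8.09, 16.6 and 5.64 CPM in LC3b-/- F1, F3 and M. The LC3b-/- libraries reached both above and into the WT range, and the highest of the 7 values was 4.15 times the lowest. Its log2 fold change was 0.37 ± 0.45 (SE), with an interval of -0.68 to 1.42 and an adjusted p of 0.646 in edgeR, and it was -0.21 without LC3b-/- F3. An increase of 2-fold lies inside this interval and a fall of 2-fold outside it.

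Esrra and Nrf1, the DNA-binding factors of the mitochondrial program, overlapped between the genotypes. Esrra (ENSMUSG00000024955, chr19:6888338-6899336, minus strand) stood at 45.4, 44.7, 54.6 and 58.5 CPM in WT (F1, F2, F3, M1), and at 67.9, 50.002 and 49.6 CPM in LC3b-/- F1, F3 and M. LC3b-/- F1 was the highest library and the other 2 lay inside the WT range. This gave a log2 fold change of 0.14 ± 0.16 (SE), with an interval of -0.24 to 0.51 and an adjusted p of 0.639 in edgeR, and it was -0.03 without LC3b-/- F1. Esrra overlaps Trmt112 on the opposite strand over 1042 bases, and Trmt112 had a log2 fold change of -0.22 with an adjusted p of 0.291 in edgeR. Nrf1 (ENSMUSG00000058440, chr6:30047892-30153462, plus strand) stood at 15.7, 25.3, 17.2 and 13.5 CPM in WT (F1, F2, F3, M1), and at 17.0, 17.2 and 16.3 CPM in LC3b-/- F1, F3 and M. The LC3b-/- values were tightly grouped inside the WT range, which WT F2 widened. The log2 fold change was -0.09 ± 0.22 (SE), with an interval of -0.60 to 0.42 and an adjusted p of 0.828 in edgeR, and it was 0.12 without WT F2.

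**Figure D2:**
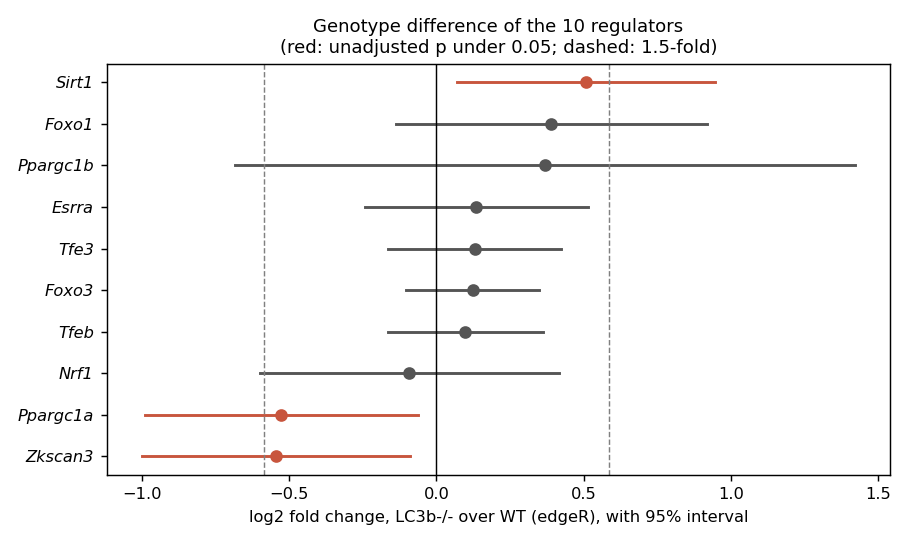
Log2 fold change of LC3b-/- over WT for each regulator (points, x axis) with its 95% interval from edgeR (lines), in red where the unadjusted p is under 0.05, with dashed lines at a 1.5-fold change. The intervals of Sirt1, Ppargc1a and Zkscan3 exclude 0 before adjustment, and that of Ppargc1b is the widest.

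Cell type markers also differed between the libraries, and the regulators were set against them. Relative to the mean log2 CPM of the 12 RPE markers in the same library, Ppargc1a differed by 0.13 between LC3b-/- and WT (exact permutation p = 0.486) and Zkscan3 by 0.16 (exact permutation p = 0.429). Of the 12 RPE markers themselves 11 were lower on average, with a median log2 fold change of -0.68. On the same relative scale the other 8 regulators were higher in LC3b-/-, by 0.64 (Nrf1) to 1.199 (Sirt1), and the 5 with the smallest p these groups allow (0.0286, exact permutation) were Tfeb, Foxo1, Foxo3, Sirt1 and Esrra. This scale was chosen after the data had been seen, and it moves every gene up where the RPE markers are low. The marker mean was 8.45 to 8.83 in LC3b-/- and 9.01 to 9.56 in WT, without overlap. The share of all genes at this p on this scale was not counted, so the 5 are not read as a result about the regulators. All 8 surface epithelium markers (median log2 fold change 4.83), all 8 endothelial markers (0.94) and all 6 fibroblast markers (0.75) were higher on average, while 6 of 8 macrophage markers were lower. Of 8 skeletal muscle markers 7 were higher on average, 1 was at 0 in a library, and their sum did not exceed 42.2 CPM. The part of these other cells in the values of the regulators was not tested.

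Photoreceptor RNA varied widely within both genotypes, which let the regulators be compared with it across libraries. Over the 7 libraries the log2 CPM of Nrf1 had r = 0.66 and rho = 0.89 with the mean of the 13 photoreceptor markers, and r = 0.88 without WT M1 and LC3b-/- F1, the libraries with the least photoreceptor RNA. For Ppargc1b these values were r = 0.64, rho = 0.75 and r = 0.58. Other pairs were as close or closer, and leaving out the farthest libraries weakened some and strengthened others. Esrra had r = -0.80 and rho = -0.61 with the photoreceptor markers, and r = -0.03 without the same libraries. With the fibroblast markers, Foxo1 had r = 0.87, rho = 0.82 and r = 0.49 without WT F3 and M1, and Tfe3 had r = 0.87, rho = 0.79 and r = 0.67. With the skeletal muscle markers, Ppargc1b had r = -0.66 and rho = -0.64, and r = -0.86 without WT F2 and LC3b-/- F1. Esrra had r = 0.80 and rho = 0.71 with these markers, and r = 0.48 without the same libraries. With the fibroblast markers, Ppargc1b had r = 0.09, and r = -0.98 without WT F3 and M1. The RPE, endothelial and surface epithelium markers separated the genotypes, so no correlation over all libraries is given for them. These are descriptions over 7 libraries that also differ in depth and in several cell types at once. All 13 photoreceptor markers were lower on average in LC3b-/- (median log2 fold change -1.39), with overlapping groups. Their part in Nrf1 and Ppargc1b was not tested.

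**Figure D3:**
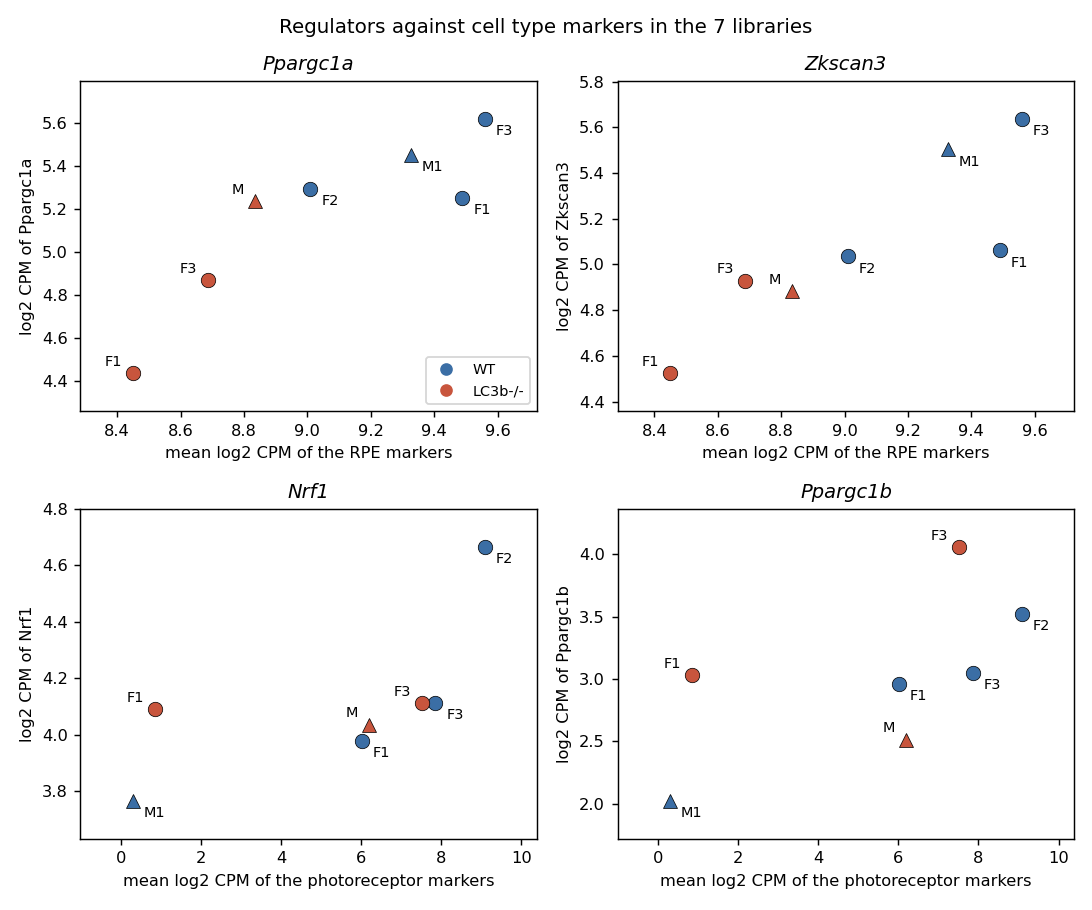
Log2 CPM of Ppargc1a and Zkscan3 against the mean log2 CPM of the RPE markers, and of Nrf1 and Ppargc1b against that of the photoreceptor markers, for the 4 WT (blue) and 3 LC3b-/- (red) libraries, each labelled by mouse, with circles for females and triangles for males. Ppargc1a and Zkscan3 are lowest in LC3b-/- F1, where RPE markers are lowest and surface epithelium RNA is highest (18481 CPM). Tfeb, Foxo1, Sirt1 and Esrra, not shown, are highest in that library. The RPE markers separate the genotypes, so marker level and genotype cannot be told apart in these panels. Nrf1 is highest in WT F2, which holds the most photoreceptor RNA.

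The other genes of the pathways were examined in 7 lists of partners and known targets, with 124 of 128 genes tested. None was called differentially expressed (0 of 124, beside 0.235% of all genes), and 30 had an unadjusted p under 0.05 (24.2%, beside 24.1% of all genes). In 27 genes the groups did not overlap (21.8%, beside 22.3%). By direction, the 30 were 20 lower (16.1%, beside 10.6% of all genes) and 10 higher (8.06%, beside 13.5%). Across these lists 81 genes were lower and 43 higher on average, with a median log2 fold change of -0.19, where 8291 of all genes were lower and 8699 higher. The lists were not tested as sets.

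Of 14 relatives and controllers of TFEB and TFE3 tested, 4 had an unadjusted p under 0.05 (28.6%, beside 24.1% of all genes). All 4 were lower in LC3b-/-, as were 10.6% of all genes at this level. In a list of 14, 1 gene more or less moves the share widely. The list median was -0.21, or -0.09 without LC3b-/- F1. Rragd, a Rag GTPase that is itself a TFEB target and recruits mTORC1 to lysosomes, stood at 215 ± 43.2 CPM in WT (SD, n = 4) and at 123 ± 21.7 CPM in LC3b-/- (SD, n = 3), without overlap. Its log2 fold change was -0.81 ± 0.20 (SE), with an unadjusted p of 0.00428 and an adjusted p of 0.0967 in edgeR. Rraga (-0.47), the kinase gene Mtor (-0.54) and the calcineurin catalytic subunit Ppp3cb (-0.30) were also lower on the log2 scale in all LC3b-/- libraries, with adjusted p from 0.108 to 0.177 in edgeR. The other Rag, folliculin-partner and mTORC1 genes lay on both sides of 0, with Rragb at -0.42, Mlst8 at -0.13, Rptor at -0.08, Rragc at 0.01, Fnip1 at 0.08 and Fnip2 at 0.46, the last higher in all LC3b-/- libraries than in any WT library (adjusted p of 0.232 in edgeR). Mitf, the relative of TFEB that governs pigment cell identity, had a log2 fold change of -0.31 with an adjusted p of 0.479 in edgeR. Tfec, the remaining relative, had 38 counts in all libraries together and was not tested.

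Of the 30 lysosomal and autophagy targets of TFEB and TFE3, 23 were lower and 7 higher on average, with a median of -0.26 (-0.42 without LC3b-/- M). Below an unadjusted p of 0.05, 5 were lower (16.7%, beside 10.6% of all genes) and 2 higher (6.67%, beside 13.5%). Together these were 23.3%, beside 24.1% of all genes. Wipi1, a phosphoinositide-binding protein of autophagosome formation, had a log2 fold change of -0.69 ± 0.22 (SE). Tpp1, a lysosomal peptidase, had -0.52 ± 0.17, and Ctsf, cathepsin F, had -0.37 ± 0.13. In the other direction Gpnmb, a glycoprotein of lysosomes and melanosomes, stood at 551 ± 118 CPM in WT (SD, n = 4) and 856 ± 91.0 CPM in LC3b-/- (SD, n = 3), a log2 fold change of 0.64 ± 0.20 (SE). The adjusted p of these 4 genes ran from 0.130 to 0.153 in edgeR. The RPE markers were lower in the same libraries, and their part in these values was not tested.

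Of 18 partners of FOXO and SIRT1, 3 had an unadjusted p under 0.05 (16.7%, beside 24.1% of all genes). Akt1, a kinase that keeps FOXO proteins out of the nucleus, was higher (log2 fold change 0.39 ± 0.12, SE), and the sirtuins Sirt2 (-0.40 ± 0.14) and Sirt3 of mitochondria (-0.46 ± 0.18) were lower, with adjusted p from 0.127 to 0.176 in edgeR. The list median was -0.07, and it was -0.11 without WT F2, -0.12 without LC3b-/- M, -0.13 in females only and -0.03 with library size alone. None of the AMPK subunit genes reached an unadjusted p of 0.05, and Nampt, which makes an NAD precursor, had 0.13 ± 0.12.

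The FOXO targets went both ways. Of 19 tested, 3 were higher and 3 lower at an unadjusted p under 0.05 (31.6%, beside 24.1% of all genes), and the median was -0.04, turning to 0.02 with library size alone as scaling and reaching -0.21 in females only. Txnip, the thioredoxin-binding protein, stood at 63.3 ± 24.3 CPM in WT (SD, n = 4) and 132 ± 20.6 CPM in LC3b-/- (SD, n = 3), without overlap (log2 fold change 1.06 ± 0.32, SE). Tnfsf10, the death ligand TRAIL, had 1.06 ± 0.40, while Cat, the catalase gene, had -0.77 ± 0.30 and Bnip3, a mitophagy receptor, had -0.49 ± 0.20. The groups overlapped for Tnfsf10, Cat and Bnip3. The adjusted p of these 4 genes lay between 0.120 and 0.186 in edgeR. Pck1, G6pc1 and Igfbp1, liver targets of FOXO1, had 31, 4 and 3 counts over all libraries and were not tested.

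The partners of PGC-1 alpha had a median just above 0 and its targets a median below 0. Of 17 partners, 4 were higher (23.5%, beside 13.5% of all genes) and 1 lower (5.88%, beside 10.6%) at an unadjusted p under 0.05. Together these were 29.4%, beside 24.1% of all genes, and the list median was 0.08. Pprc1, the growth-responsive relative of PGC-1 alpha, stood at 11.4 ± 3.37 CPM in WT (SD, n = 4) and 22.3 ± 4.84 CPM in LC3b-/- (SD, n = 3), without overlap, and its log2 fold change of 0.97 ± 0.26 (SE) had an unadjusted p of 0.00672 and an adjusted p of 0.105 in edgeR. With TMM scaling, Pprc1 was above and Ppargc1a below all WT libraries in every LC3b-/- library. Ppard, a fatty acid receptor, had 0.44 ± 0.13, and Nrip1, a corepressor of nuclear receptors, had 0.47 ± 0.16. Tfb2m, a mitochondrial transcription factor, had -0.33 ± 0.13, and Tfam, which packages mitochondrial DNA, had -0.24 ± 0.15 with an adjusted p of 0.362 in edgeR. Esrrb ranged from 0.192 CPM in WT M1 to 102 CPM in WT F2, the libraries with the least and most photoreceptor RNA among WT, and its log2 fold change of -1.17 had an SE of 1.66.

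Of 10 targets of PGC-1 with ERR alpha, 7 were lower on average (median -0.20). Of these, 2 had an unadjusted p under 0.05 (20.0% of the list, beside 24.1% of all genes and 10.6% lower). Slc25a4, the ADP/ATP carrier, stood at 910 ± 106 CPM in WT (SD, n = 4) and 622 ± 75.9 CPM in LC3b-/- (SD, n = 3), a log2 fold change of -0.55 ± 0.17 (SE). Mfn2, which fuses mitochondria, had -0.33 ± 0.10. Neither overlapped between groups, and the adjusted p were 0.125 and 0.122 in edgeR. Vegfa, a secreted factor of the RPE, had -0.57 ± 0.29 with an adjusted p of 0.279 in edgeR.

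Of 16 NRF1 targets, 13 were lower on average (median -0.22). At an unadjusted p under 0.05, 3 were lower and 0 higher (18.8%, beside 24.1% of all genes and 10.6% lower). The 3 were Cox17, the copper chaperone of cytochrome oxidase (-0.48 ± 0.15, SE), the oxidase subunit gene Cox7c (-0.35 ± 0.13) and Atp5mc1, a ring subunit of ATP synthase (-0.33 ± 0.13), with adjusted p from 0.123 to 0.192 in edgeR. Nrf1 mRNA itself differed by -0.09 with its wide interval given before. With DESeq2 instead of edgeR, 1831 of the 16990 genes were called. Among them were 5 of the 124 partner and target genes, a smaller share, and again no regulator. This count is not read as a result about the lists. The 5, listed after their values were seen, were Rragd and Wipi1 (lower) and Pprc1, Gpnmb and Txnip (higher).

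**Figure D4:**
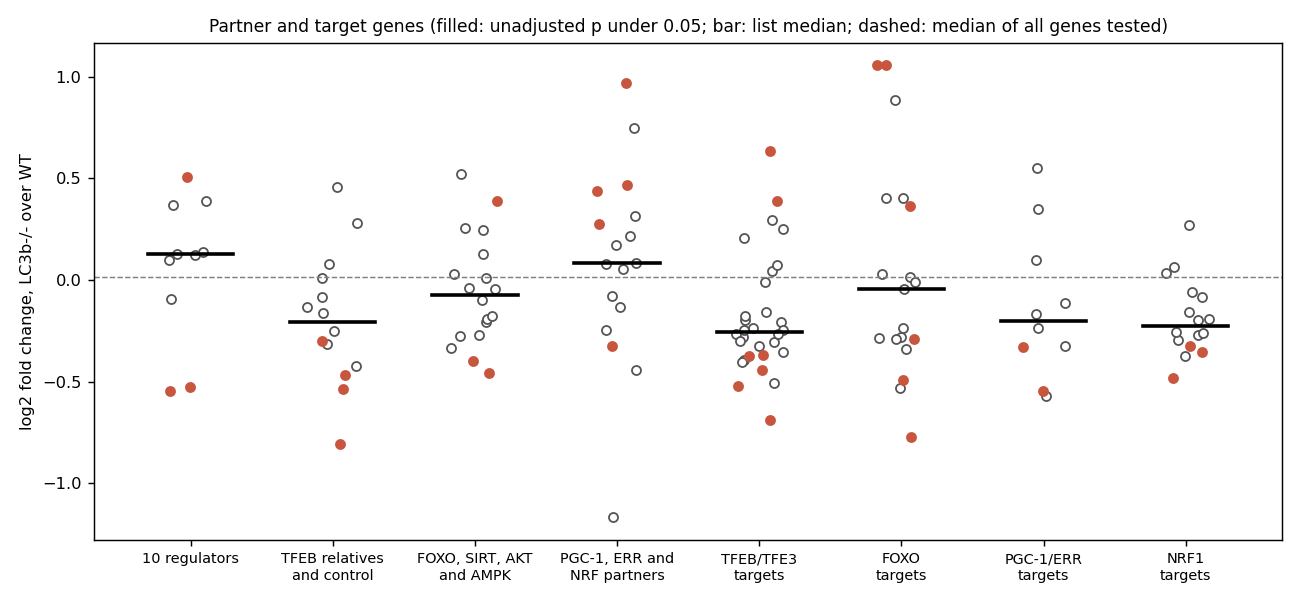
Log2 fold change of LC3b-/- over WT (y axis) for the 10 regulators and the genes tested of 7 partner and target lists, 1 point per gene, filled where the unadjusted p is under 0.05, with a bar at each list's median and a dashed line at the median of all genes. The medians of the TFEB/TFE3, PGC-1/ERR and NRF1 targets lie between -0.26 and -0.20, and those of the regulators and the PGC-1 partners lie above the line.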

How the data were processed

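Total RNA of isolated RPE was made into stranded mRNA libraries and sequenced as 100-base single reads. The authors estimated reads per transcript with salmon against GENCODE transcripts of GRCm39 and summed them to genes with tximeta, and the deposited values are estimated counts per gene, whole numbers without scaling for depth. Each of the 7 columns was used, grouped by labelled genotype. Symbols, positions and lengths came from GENCODE vM39 on the same build, which held 51721 of the 52740 identifiers, and promoter sequence from the GRCm39 genome.

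Tests used edgeR 4.0.16 in R 4.3.3, with its filterByExpr filter, TMM scaling and quasi-likelihood test on genotype alone. The p-values were adjusted by Benjamini-Hochberg over the 16990 genes kept. The biological coefficient of variation was 0.398. Log2 CPM used a prior count of 2. Exact permutation tests were two-sided, with 35 possible arrangements of 3 and 4 libraries. Intervals are 95%. Nothing states that the mice came from separate litters or cages, and p-values measure the spread between these 7 mice only. The sample titles also carry a number. All WT mice share one, LC3b-/- F1 and F3 share another, and LC3b-/- M has its own. What this number stands for is not stated, and it cannot be told apart from genotype. Alternatives were DESeq2 1.42.0, voom of limma 3.58.1, other scaling and filters, sex as covariate, females only, a replicate block, leaving out each library, other fold thresholds and summing copies found with BLAST 2.17.0. Leaving out WT F2 with LC3b-/- F1, and the scale relative to RPE markers, were added after seeing the data. The code was tested on simulated data.

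The regulators, lists and markers were chosen with earlier results of these data known. Named genes are the 10 regulators, Map1lc3b, up to 4 genes per list with the smallest unadjusted p under 0.05, list genes not tested, and the 5 genes most like the regulator with the smallest p. Mitf, Rragb, Mlst8, Rptor, Rragc, Fnip1, Fnip2, Nampt, Tfam, Vegfa and Esrrb were named after their values were seen.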

Additional observations from a re-analysis of the deposited data

How the results depend on the processing

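No regulator was called under any of the alternatives run, DESeq2, voom and the fold thresholds included. The count of regulators with an unadjusted p under 0.05 (3) was 1 with library size alone and 1 in females only, ran from 0 to 4 when 1 library was left out, and was 0 without WT F2 and LC3b-/- F1 together. The count without overlap (4) was 1 with library size alone. DESeq2 called 5 of 124 partner and target genes where edgeR called 0. These 5 are a smaller share of the lists than the 1831 genes called by DESeq2 are of all 16990. Of single log2 fold changes, Tfe3 was -0.0089 in females only. When 1 library was left out, Nrf1 ran from -0.21 to 0.12, Esrra from -0.032 to 0.21 and Ppargc1b from -0.21 to 0.65. Without WT F2 and LC3b-/- F1, Esrra was -0.083 and Nrf1 0.12. Relative to the RPE markers, Zkscan3 was 0.16, Ppargc1a 0.13 and Nrf1 0.64. The cause of these shifts was not tested, beyond the fewer libraries where some were left out. Over all genes, the calls (40) were 1831 with DESeq2, 124 with voom, 197 with sex as a covariate, 96 in females only, 78 without a filter, 2 without WT F2 and LC3b-/- F1 together, and 11 to 485 with 1 library left out. Under the alternatives, 300 single values, list medians and counts over all genes and 58 counts of regulators and list genes moved less than their limit. Among these, the FOXO target median turned from -0.04 to 0.02 with library size alone. The 24 that moved further are the counts over all genes given here and list medians. The mouse names share letters and numbers between genotypes but nothing says that these pair the mice, and the deviations of same-named mice correlated at 0.146 (F1), 0.243 (F3) and -0.172 (M1 with M), so they were not taken as pairs. With the name as a replicate block, 0 regulators and 1 gene of all were called, 4 regulators had an unadjusted p under 0.05, and Nrf1 was 0.13. With 4 and 3 mice, even a 2-fold increase in a gene as variable as Ppargc1b could not be resolved.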
